A study of Mus musculus with 106 samples.

Results

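The 8 genes described here mark megakaryocytes and platelets and were read, among 21938 protein-coding genes, in every H3K27ac and H3K4me3 peak list of the series. They were chosen by name: Itga2b, Gp9, Gp1bb, Gp6, Vwf, Pf4, Ppbp and Treml1. A gene's promoter was taken as the 1 kb on either side of any annotated start site in GRCm38, and its locus as the gene body with 10 kb on either side. ChIP-seq of both histone marks was performed on marrow hematopoietic stem cells (HSC) of diabetic and control mice, and on macrophages grown from such marrow (BMDM). Of 106 samples, 70 had a peak list and 36 were inputs, meaning chromatin sequenced without an antibody step. The question was which of these genes carried active-promoter marks in HSC compared with BMDM, and how evenly so over the HSC preparations.

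Mice were C57BL/6J, 12 to 14 weeks old. Diabetic mice had received streptozotocin, a toxin of insulin-producing cells, at 42 to 45 mg/kg/day for 5 days, and tissue was taken 6 weeks later with blood glucose above 13.9 mmol/L. HSC were marrow cells from which cells bearing CD3, CD4, B220, Ter119 or Gr1 had been removed. No megakaryocyte or platelet marker is named among those antibodies, so the preparation is a lineage-depleted pool rather than a sorted stem cell. BMDM of both disease groups had been differentiated for 7 days at 5 mmol/L glucose, and were then kept unstimulated or given 100 ng/mL LPS with 10 ng/mL IFN-γ for 16 h. Each mark had 6 libraries per group, except 5 for diabetic unstimulated BMDM. The 2 marks of a group and number share an input.

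Megakaryocytes are the large marrow cells that shed platelets, and they arise close to the stem cell in the hematopoietic tree. Several platelet proteins are already transcribed in a subset of stem cells and in megakaryocyte progenitors, so a lineage-depleted marrow pool may hold such cells at low frequency. H3K27ac marks active promoters and enhancers, and H3K4me3 marks promoters that are active or poised. In bulk chromatin, fewer cells carrying a mark and less of the mark per cell cannot be told apart.

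Lists held 13730 to 277213 peaks (median 110154), and 40.8% to 79.3% of protein-coding genes had a promoter peak. H3K4me3 lists were shorter in HSC (median 59726.5 peaks, 13730 to 145750) than in unstimulated BMDM (median 131406, 66146 to 212718), whereas H3K27ac lists were of similar length (medians 125766.5 and 111095). Among control BMDM, 3 H3K27ac libraries went against their label. The check used 165 promoters that were higher and 299 that were lower with stimulation in diabetic BMDM. The first set's mean percentile minus the second's was 9.93 and 5.88 points in unstimulated libraries 5 and 6. The other control LPS+IFN-γ libraries ran from 6.05 to 18.7, so unstimulated library 6 lay just below them. LPS+IFN-γ library 5 was at -7.75, and control unstimulated libraries 2 to 4 ran from -14.1 to -5.34. Control unstimulated library 1 stood between the groups, at 1.09, and was kept. Member differences called for H3K27ac are also given without the 3 libraries. The check was made on H3K27ac alone. For H3K4me3 the libraries of the same group and number were left out in the same way, although none was shown to go against its label.

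For each library a gene was scored by its best peak, the one with the highest −log10 p in the window, and this was converted to a percentile among all 21938 genes, with genes lacking a peak sharing the lowest rank. A percentile is therefore a rank within 1 library and not a signal level. HSC and unstimulated BMDM were compared gene by gene with a two-sided exact permutation of cell type over libraries within each disease group, with Benjamini-Hochberg adjustment over all genes tested. A call means an adjusted P under 0.05. The difference in percentile points is the mean of the control and the diabetic difference.

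Sequence is shown for 4 members whose promoter rank differed between the cell types: both that were higher in HSC for H3K27ac at their own start, the 1 that was higher for H3K4me3, and the 1 that was lower for H3K27ac. Each is the 250 bases before the RefSeq start (build GRCm38.p6), 5′ to 3′ on the gene's strand. They lie at chr11:102469884-102470133 on the minus strand for Itga2b, chr6:87777820-87778069 on the plus strand for Gp9, chr16:18622404-18622653 on the minus strand for Gp1bb, and chr5:90772185-90772434 on the plus strand for Pf4. Capitals mark matches, on either strand, to a GATA motif (AGATAA in one form, AGATAG in another, TGATAA in a further form and TGATAG in the last), the ETS motif AGGAAG or the RUNX motif TGTGGT, the DNA words of factor families active in megakaryocytes. No matches overlapped.
Itga2b: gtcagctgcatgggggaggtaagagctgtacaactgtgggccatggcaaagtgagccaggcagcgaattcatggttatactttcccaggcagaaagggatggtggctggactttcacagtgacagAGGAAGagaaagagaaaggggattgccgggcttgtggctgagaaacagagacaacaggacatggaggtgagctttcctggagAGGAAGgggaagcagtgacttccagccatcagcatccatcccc
Gp9: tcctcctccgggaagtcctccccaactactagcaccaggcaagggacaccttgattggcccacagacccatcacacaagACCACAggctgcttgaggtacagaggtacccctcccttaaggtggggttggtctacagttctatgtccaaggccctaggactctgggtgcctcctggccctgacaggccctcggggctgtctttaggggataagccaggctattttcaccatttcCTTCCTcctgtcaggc
Gp1bb: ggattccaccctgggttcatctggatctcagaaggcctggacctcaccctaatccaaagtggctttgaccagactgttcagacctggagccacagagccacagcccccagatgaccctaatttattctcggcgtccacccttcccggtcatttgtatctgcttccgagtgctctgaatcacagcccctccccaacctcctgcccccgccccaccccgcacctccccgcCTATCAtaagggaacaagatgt
Pf4: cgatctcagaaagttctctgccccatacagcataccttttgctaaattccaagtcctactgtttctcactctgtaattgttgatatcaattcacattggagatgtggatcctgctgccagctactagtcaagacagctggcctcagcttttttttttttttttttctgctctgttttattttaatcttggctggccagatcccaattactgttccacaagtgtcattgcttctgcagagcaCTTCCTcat

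Itga2b held ETS words 125 and 43 bases before its start, Gp9 an ETS word at 16 and a RUNX word at 171, Gp1bb a GATA word at 22 and Pf4 an ETS word at 9. Gp6 held a GATA word at 144, and the windows of Ppbp and Treml1 held none of the 3. Promoters were matched for 7 of 8 members, with no entry for Vwf. Of 32851 promoters in the same table, 26.5% held a GATA word, 29.5% the ETS word and 14.0% the RUNX word. These matches are a description of the letters.

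For H3K27ac at promoters, all 8 members had a peak in at least 2 libraries and were tested. Gp9 was higher in HSC and Pf4 was lower. Over all 17448 genes tested, 15.9% were higher and 15.1% lower in HSC, so 1 member in each direction of 8 is near the background. The members' median difference was -1.40 percentile points, and 0.304 over all genes tested. When only start sites of GENCODE basic transcripts were used, which leaves out the starts of partial transcripts, Itga2b and Gp9 were higher and Pf4 lower, against 15.7% higher and 14.7% lower of all genes. For H3K4me3, 7 members were tested. Gp1bb was higher in HSC (background 7.03%), and Itga2b and Vwf were lower (background 8.13%), with a median of -1.97 for the members and -0.441 for all genes. With basic start sites only Gp1bb was called (backgrounds 6.94% higher and 8.09% lower). Over whole loci, ranked by the best peak, H3K27ac called 0 members higher (background 15.9%) and Pf4, Ppbp and Treml1 lower (background 16.6%), and H3K4me3 called 0 higher (background 6.73%) and Treml1 lower (background 5.87%). The Pf4 and Ppbp loci overlap, so their H3K27ac locus calls are not separate. The best H3K27ac peak of the Ppbp locus lay mostly over a neighbor's start. That of the Treml1 locus lay in BMDM mostly in the upstream flank. By these measures the members moved in different directions, and by different amounts at the start and over the locus, as the plots of percentiles and of differences show.

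**Figure D1:**
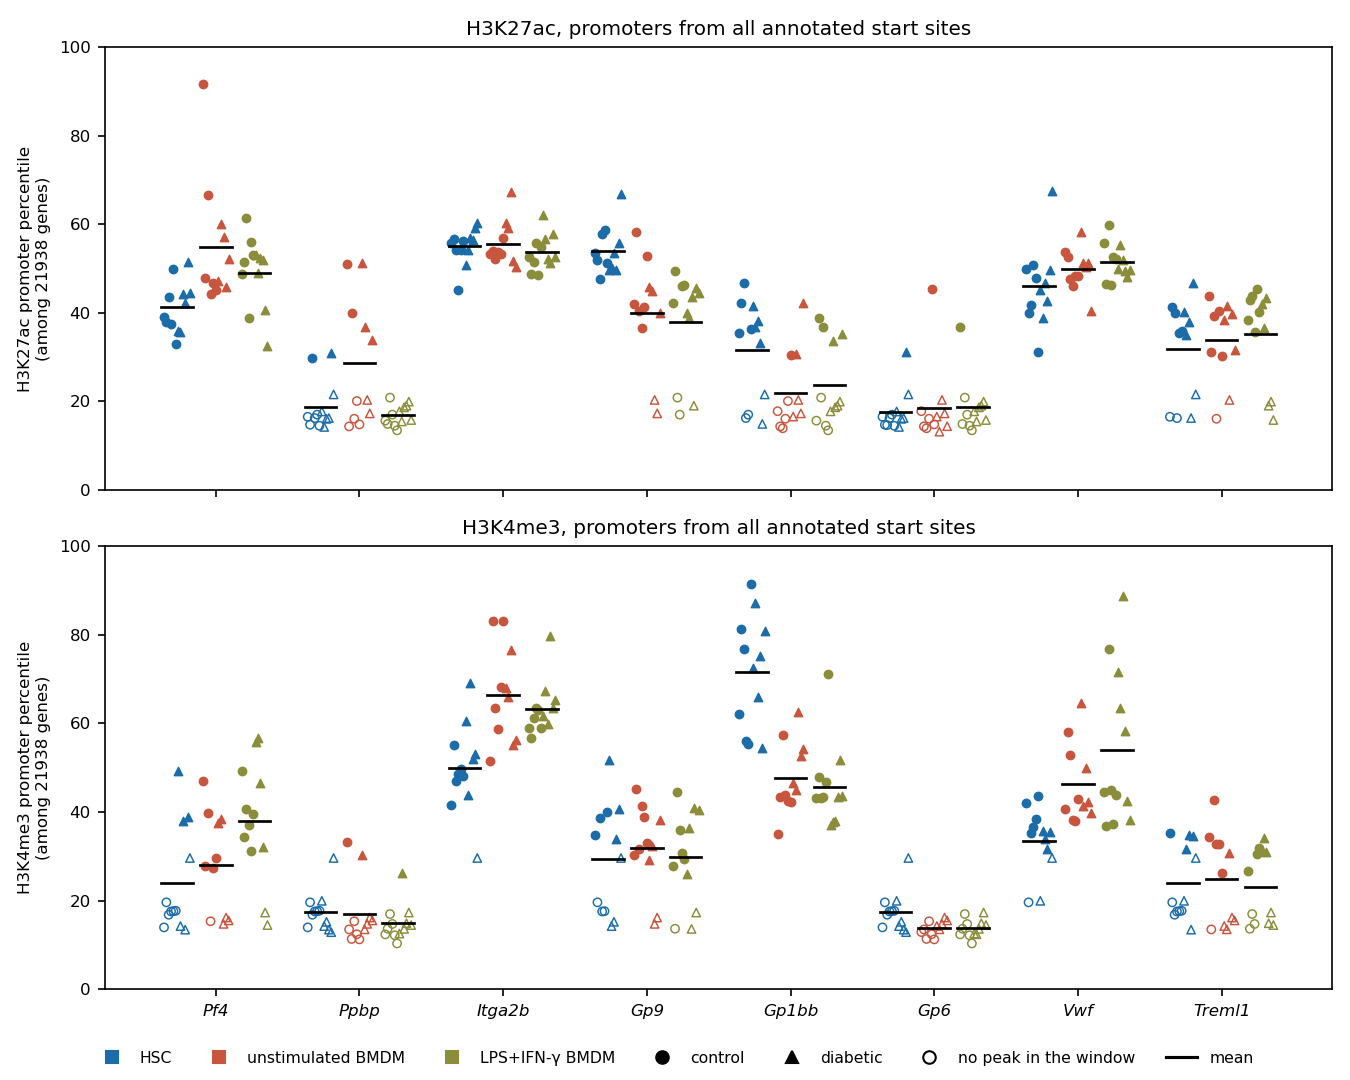
Promoter percentile of each member (y axis, rank of the best peak among all protein-coding genes) in each H3K27ac and H3K4me3 library, by cell type; each point is 1 library (circles control, triangles diabetic, open symbols without a peak) and lines show the mean. Gp9 H3K27ac stood at 53.9±5.30 in HSC and 39.98±12.2 in unstimulated BMDM, and Gp1bb H3K4me3 at 71.5±12.7 and 47.7±8.02.

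The receptors come first. Itga2b encodes integrin αIIb (CD41), the fibrinogen receptor subunit that is used as the earliest surface marker of the megakaryocyte lineage. It lies at chr11:102453297-102470122 on the minus strand and has 10 annotated start sites, of which 1, 239 bp into the gene, belongs to a basic transcript. At this start, H3K27ac percentiles in HSC were 43.2, 50.8 and 58.7 (lowest, median and highest of 12), with a peak in 12 of 12 libraries. In unstimulated BMDM they were 13.9, 18.7 and 44.4, with a peak in 4 of 11, and in LPS+IFN-γ BMDM 14.2, 20.3 and 49.5, with a peak in 4 of 12. Of the HSC libraries, 11 of 12 lay above every unstimulated BMDM library, and 10 of 11 BMDM libraries lay below every HSC library. The mean was 50.9±4.82 in HSC and 24.2±10.95 in BMDM, a difference of 26.6 (exact permutation P=2.343e-06, the smallest these libraries can give, adjusted P=8.19e-05). Leaving out any 1 library kept the difference between 25.1 and 28.9, and it was 27.7 (adjusted P=0.000271, exact permutation) without the unstimulated libraries that went against their label. Control mice alone gave 28.1 and diabetic mice alone 25.1, both called.

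Where called, the peak at this start was also wider and stood higher in its list in HSC. In HSC it had a median width of 756 bp, a median −log10 p of 19.3 (9.43 to 29.2) and a median rank of 14130, within the top 14.3% of its list. In the 4 unstimulated BMDM libraries with a peak, the width was 263 bp, the −log10 p 4.54 and the rank 86737. In bins of 200 bp, defined after the data were seen, 3 stretches around the start were held mostly in HSC, meaning each bin by at least 9 of 12 HSC and at most 3 of 11 BMDM libraries. The count for a stretch, here and below, is that of its most often held bin in each group. Libraries with a peak anywhere in the stretch can be more. The stretch at -878 to -279 bp from the gene start (chr11:102470401-102471000) was covered in 10 HSC libraries and in 0 of either BMDM group. Of the 55 bins of the locus held by at least 6 of 23 libraries, 5 were mostly HSC and 1 mostly BMDM, against 4.85% and 5.31% of 458569 bins over all loci.

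With all start sites, as the promoter was first defined, Itga2b was not called. HSC stood at 45.1, 56.0 and 60.4 and BMDM at 50.3, 53.7 and 67.4 (difference -0.807, exact permutation P=0.669, adjusted P=0.778). The window then also took in starts 2923 and 3167 bp into the gene, where H3K27ac peaks lay in 12 of 12 HSC, 11 of 11 unstimulated and 12 of 12 stimulated libraries. A start 13932 bp into the gene had peaks in 11, 10 and 12 libraries. The plot of start sites sets both measures side by side. With all start sites, the best HSC peak ran, by medians, from 2018.5 to 3142 bp into the gene. In unstimulated BMDM the best peak ran from 13597 to 14509 bp. These medians lie at different internal starts, and ranks at single internal starts were not compared.

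**Figure D2:**
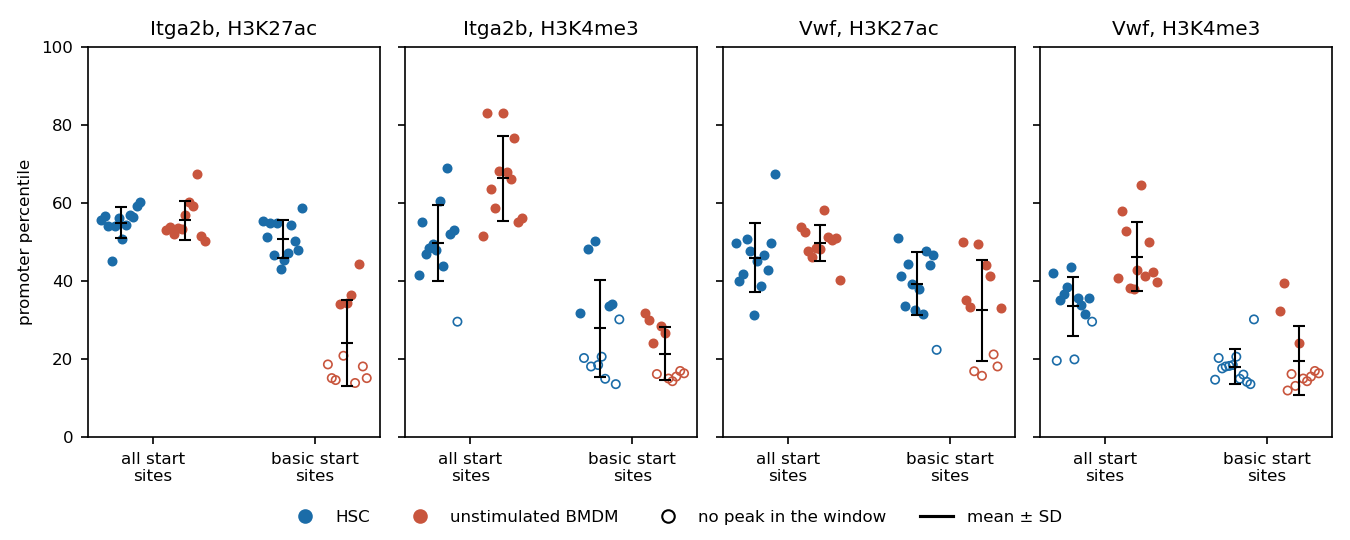
H3K27ac and H3K4me3 promoter percentile (y axis) of Itga2b and Vwf with all annotated start sites and with basic start sites, in HSC and unstimulated BMDM; points are libraries, open where the window held no peak, and bars the mean and SD. For Itga2b H3K27ac the cell types overlap with all start sites (55.0±4.01 and 55.6±4.99) and separate with the basic start (50.9±4.82 and 24.2±10.95).

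H3K4me3 at Itga2b was lower in HSC with all start sites. HSC stood at 29.6, 49.1 and 69.0 (peak in 11 of 12) and unstimulated BMDM at 51.5, 66.1 and 83.1, and 7 of 12 HSC libraries lay below every BMDM library (difference -16.4, exact permutation P=0.00128, adjusted P=0.0193). Among libraries with a peak, the best one lay over the gene start in 1 of 11 HSC and 0 of 11 unstimulated BMDM libraries. At the basic start, peaks lay in 5 of 12 HSC, 5 of 11 unstimulated and 7 of 12 stimulated libraries, with a difference of 6.94 that did not pass the test (adjusted P=0.218, exact permutation). All 5 of the unstimulated libraries with that peak were from control mice. Of 64 held H3K4me3 bins, 14 were mostly BMDM and 0 mostly HSC. Over all loci, 12.5% of 343704 bins were mostly BMDM and 0.0506% mostly HSC, in the same direction as the shorter HSC lists, and the part of list length in the H3K4me3 differences was not tested.

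Gp9 encodes glycoprotein IX, a subunit of the receptor through which platelets bind von Willebrand factor. It lies at chr6:87778072-87779768 on the plus strand, with 1 start site. H3K27ac percentiles in HSC were 47.7, 52.6 and 66.8, with a peak in 12 of 12 libraries. In unstimulated BMDM they were 17.3, 41.2 and 58.3 (peak in 9 of 11), and in LPS+IFN-γ BMDM 17.0, 43.0 and 49.5 (peak in 9 of 12). Of the unstimulated BMDM libraries, 9 of 11 lay below every HSC library, and 2 HSC libraries lay above every BMDM library. The difference was 14.4 (exact permutation P=0.000422, adjusted P=0.0031), and 14.9 (adjusted P=0.0041, exact permutation) without the libraries against their label. Control mice alone gave 8.27, which did not pass the test (adjusted P=0.215, exact permutation), and ranking by fold enrichment gave 14.9 (adjusted P=0.111, exact permutation).

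The Gp9 peak was broader in HSC, with a median width of 1858.5 bp against 768 bp in unstimulated and 876 bp in LPS+IFN-γ BMDM. Its median −log10 p was 25.0 in HSC and 10.8 in unstimulated BMDM, and its median rank 12246.5 and 34106. Over the locus, peaks covered 32.5±5.72% of bases in HSC (22.4% to 41.3%), against 12.7±5.34% in unstimulated (3.99% to 23.2%) and 19.1±12.7% in LPS+IFN-γ BMDM (4.84% to 47.0%). As a percentile of covered share, a measure added after the data were seen, all 12 HSC libraries (96.5 to 99.0) lay above all 11 unstimulated BMDM libraries (69.1 to 87.9). The difference was 18.5 (exact permutation P=2.343e-06, adjusted P=4.54e-05), against a background of 20.8% of genes higher and 20.5% lower by this measure, and 17.0 to 19.4 with any 1 library left out. Without the libraries against their label it was 19.5 (adjusted P=0.000146, exact permutation). For counts of libraries outside the other group's range, here and at other members, the share over all genes is not given.

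The Gp9 locus had 4 stretches held mostly in HSC. The stretch at -1671 to -72 bp from the start (chr6:87776401-87778000) was covered in 12 of 12 HSC, 3 of 11 unstimulated and 6 of 12 stimulated libraries. A stretch 9129 to 9928 bp downstream of the start was covered in 11, 3 and 6 libraries, and lies near the ends of Rab43 and Gm45140 rather than within Gp9. In all, 14 of 48 held bins were mostly HSC and 0 mostly BMDM, against 4.85% and 5.31% over all loci. The best single peak of the locus differed less (6.38, adjusted P=0.0603, exact permutation). H3K4me3 at the Gp9 start was found in 6 of 12 HSC, 9 of 11 unstimulated and 9 of 12 stimulated libraries, at 29.5±12.4 in HSC and 31.9±9.52 in unstimulated BMDM (difference -1.97, adjusted P=0.806, exact permutation). The H3K27ac call at Gp9 thus had no H3K4me3 call beside it.

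Gp1bb encodes glycoprotein Ibβ, a partner of glycoprotein IX in the same receptor. It lies at chr16:18620317-18622403 on the minus strand and overlaps Sept5 and Gm49601 on the same strand, so peaks there cannot be assigned to 1 gene. H3K4me3 percentiles were 54.4, 73.8 and 91.3 in HSC, whereas unstimulated BMDM gave 35, 44.9 and 62.6 and stimulated BMDM 37.0, 43.3 and 71.2, with a peak in all 35 libraries. Of the HSC libraries, 8 of 12 lay above every unstimulated BMDM library, and 9 of 11 BMDM libraries lay below every HSC library. The difference was 23.5 (exact permutation P=4.45e-05, adjusted P=0.00398). It was 23.04 (adjusted P=0.0151, exact permutation) without control unstimulated BMDM 5 and 6, and 4.09 (adjusted P=0.742, exact permutation) when peaks were ranked by fold enrichment.

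The Gp1bb peak differed less in width and in −log10 p than in rank. The median peak width was 1078.5 bp in HSC and 1320 bp in BMDM, the median −log10 p 25.4 and 21.2, and the median rank 6039.5 and 19891 in lists of unequal length. For H3K27ac, the promoter had a peak in 8 of 12 HSC, 3 of 11 unstimulated and 4 of 12 stimulated libraries, at 31.7±11.2, 21.8±8.90 and 23.7±9.48. That difference of 9.56 did not pass the test (exact permutation P=0.0401, adjusted P=0.101). Over the locus the best peak lay mostly over the starts of Sept5 and Gm49601, at -7551 and -4024 bp, and no held bin was mostly in 1 cell type.

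Gp6, the platelet collagen receptor gene (chr7:4363965-4397744, minus strand), was nearly without peaks. An H3K27ac promoter peak was found in 1 of 12 HSC, 1 of 11 unstimulated and 1 of 12 stimulated libraries (difference -0.808, adjusted P=0.898, exact permutation). H3K4me3 was found in 0 of 35 libraries, so that mark was not tested. An H3K27ac peak anywhere in the locus was found in 4, 4 and 8 libraries, and no bin was held by 6 or more. A missing peak means that none passed the callers' threshold near a q of 0.05, not that the mark was absent.

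Vwf encodes von Willebrand factor, the adhesive ligand stored in megakaryocyte and endothelial granules, and its expression marks platelet-biased stem cells. The gene spans 139906 bp at chr6:125546774-125686679 on the plus strand. With all start sites, H3K27ac stood at 31.2, 46.0 and 67.4 in HSC and at 40.4, 50.4 and 58.2 in unstimulated BMDM, with a peak in all 35 libraries, and the groups overlapped (difference -3.86, adjusted P=0.355, exact permutation). At basic start sites, peaks lay in 11 of 12 HSC, 7 of 11 unstimulated and 8 of 12 stimulated libraries (39.4±8.18 in HSC and 32.6±12.9 in unstimulated BMDM, difference 6.89, adjusted P=0.266, exact permutation). Start sites differed among themselves. Those 6174 and 6189 bp into the gene had a peak in 11 HSC, 4 unstimulated and 6 stimulated libraries, and the start at 19477 bp in 9, 1 and 1. The start at 138963 bp, at the gene's far end, had one in 3, 10 and 12.

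Along the Vwf locus, 29 of 167 held H3K27ac bins were mostly HSC and 3 mostly BMDM, against 4.85% and 5.31% over all loci. The mostly-HSC bins formed 8 stretches between 6027 and 48026 bp into the gene. One of these, from 17027 to 18426 bp, was covered in 12 HSC, 3 unstimulated and 2 stimulated libraries, and another, from 25427 to 27626 bp, in 12, 3 and 8. The mostly-BMDM stretch ran from 139427 to 140026 bp, at the gene's end, and was covered in 3, 10 and 12 libraries. Covered share was 9.75±3.09% in HSC, against 7.78±5.52% in unstimulated and 9.14±4.92% in LPS+IFN-γ BMDM. The covered-share percentile was 12.2 points higher in HSC (exact permutation P=0.00136, adjusted P=0.00542) and 10.1 (adjusted P=0.0198, exact permutation) without the libraries against their label. Control and diabetic mice alone gave 9.92 and 14.4, neither of which passed the test (adjusted P=0.151 and 0.071, exact permutation).

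H3K4me3 at Vwf was lower in HSC with all start sites, at 19.6, 35.4 and 43.7 (peak in 9 of 12) against 38.0, 42.3 and 64.6 in unstimulated BMDM (peak in 11 of 11). Of the HSC libraries, 9 of 12 lay below every BMDM library (difference -12.9, exact permutation P=0.000312, adjusted P=0.00925). Among libraries with a peak, the best one lay over the gene start in 0 of 9 HSC and 0 of 11 BMDM libraries. By medians it ran from 56667 to 57196 bp into the gene in HSC and from 139351 to 139895 bp in BMDM. At basic start sites, H3K4me3 peaks were rare, in 0 of 12 HSC, 3 of 11 unstimulated and 4 of 12 stimulated libraries (difference -1.19, adjusted P=0.816, exact permutation). Covered share was 1.47±1.23% in HSC and 6.14±3.75% in BMDM (difference -22.5 in its percentile, exact permutation P=0.000131, adjusted P=0.00279), against backgrounds of 18.9% higher and 13.5% lower. Of 55 held bins, 13 were mostly BMDM, against 12.5% over all loci.

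**Figure D3:**
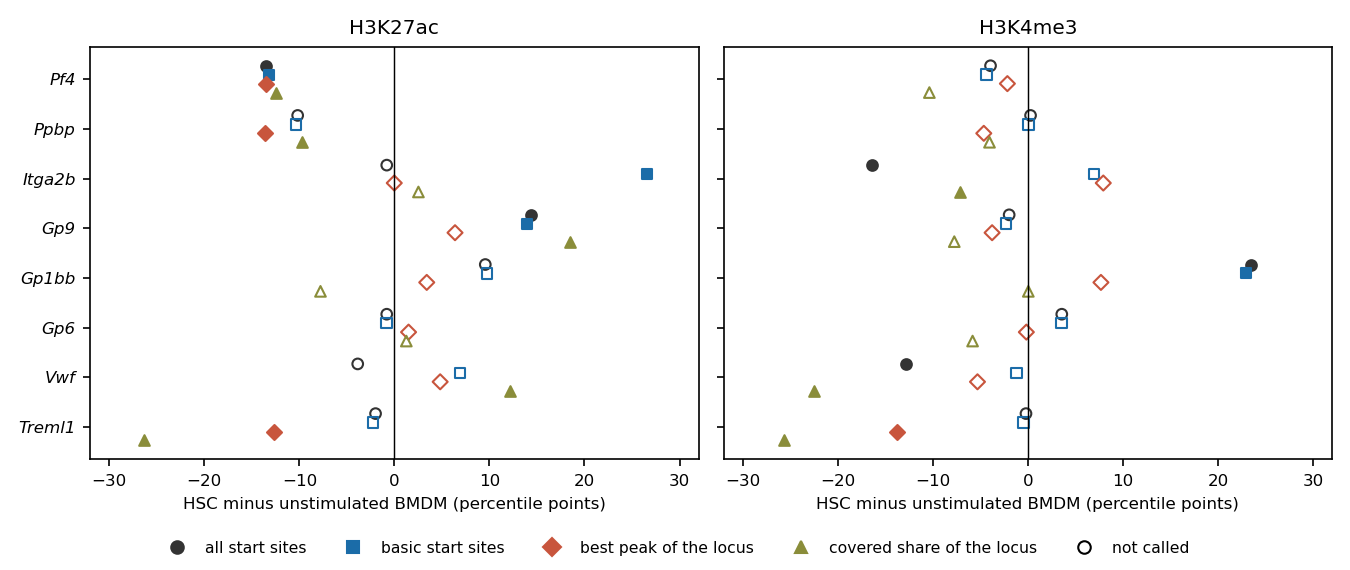
HSC minus unstimulated BMDM difference in percentile points (x axis) of each member for both marks, by all start sites, basic start sites, best peak of the locus and covered share; filled points are called at an adjusted P under 0.05, and Gp6 H3K4me3 at the promoter, with no peak in any library, reflects ties alone. Itga2b H3K27ac lay at -0.807 with all start sites and 26.6 with the basic start, and Gp9 H3K27ac was above 0 by each measure, from 6.38 to 18.5.

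Pf4 and Ppbp encode platelet chemokines stored in α-granules, platelet factor 4 and pro-platelet basic protein. They are neighbors, with Pf4 at chr5:90772435-90773383 and Ppbp at chr5:90768518-90770063, both on the plus strand and with starts 3917 bp apart. At Pf4, H3K27ac percentiles were 33.1, 40.7 and 51.5 in HSC, whereas unstimulated cells gave 44.2, 47.8 and 91.6 and LPS+IFN-γ BMDM 32.5, 51.7 and 61.4, with a peak in all 35 libraries. Of the HSC libraries, 8 of 12 lay below every unstimulated BMDM library, and 5 of 11 BMDM libraries lay above every HSC library. The difference was -13.5 (exact permutation P=0.000846, adjusted P=0.00534), -16.2 (adjusted P=0.00464, exact permutation) without the libraries against their label, and -14.7 to -10.0 with any 1 library left out. Control and diabetic mice alone gave -16.8 and -10.1, neither of which passed the test (adjusted P=0.114 and 0.117, exact permutation). The highest value came from control unstimulated BMDM library 1, where the peak had a −log10 p of 74.0 and ranked 1783.

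The Pf4 peak was also narrower in HSC, with a median width of 434.5 bp against 807 bp. A bin 766 to 965 bp past the start was covered in 1 of 12 HSC, 10 of 11 unstimulated and 7 of 12 stimulated libraries. Peaks covered 3.90±1.60% of the locus in HSC and 6.59±3.76% in BMDM (difference -12.5 in percentile, adjusted P=0.00678, and 0.0157 without the libraries against their label, exact permutation). H3K4me3 was found at the promoter in 3 of 12 HSC, 7 of 11 unstimulated and 10 of 12 stimulated libraries (difference -3.93, adjusted P=0.6246, exact permutation). The 3 HSC libraries with that peak were all from diabetic mice.

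Ppbp had an H3K27ac promoter peak in 2 of 12 HSC, 5 of 11 unstimulated and 0 of 12 stimulated libraries. Percentiles were 18.8±5.73 in HSC, 28.7±14.4 without stimulation of BMDM (14.4, 20.3 and 51.3) and 16.9±2.33 with it (difference between HSC and unstimulated BMDM -10.2, exact permutation P=0.035, adjusted P=0.0913). The locus was called lower in HSC (-13.6, exact permutation P=0.000312, adjusted P=0.00244, and -15.6 with adjusted P=0.00183 without the libraries against their label), but its best peak lay over the start of a neighbor, Pf4 or Cxcl5, in 12 of 12 HSC and 10 of 11 BMDM libraries. H3K4me3 was found at the Ppbp promoter in 0 of 12, 2 of 11 and 1 of 12 libraries. The locus call is thus largely a value of the neighbors' starts.

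Treml1 encodes TLT-1, an α-granule receptor of activated platelets, and lies at chr17:48359916-48367176 on the plus strand, downstream of Trem2, a macrophage receptor gene that ends at -5769 bp from its start. Its own promoter was not called, with H3K27ac peaks in 8 of 12 HSC, 9 of 11 unstimulated and 9 of 12 stimulated libraries (31.9±11.1, 33.9±8.98 and 35.3±10.7, difference -1.99, adjusted P=0.759, exact permutation). The locus was lower in HSC, at 27.2±8.19 against 39.7±7.01 (difference -12.7, exact permutation P=0.00103, adjusted P=0.0061), and 8 of 11 BMDM libraries lay above every HSC library. It was -12.5 (adjusted P=0.0143, exact permutation) without the libraries against their label. The best peak lay in the upstream flank, toward Trem2, in 10 of 11 BMDM libraries and in 1 of the 10 HSC libraries with a peak. The stretch at -8315 to -7716 bp, within Trem2, was covered in 3 HSC, 10 unstimulated and 11 stimulated libraries, and the stretch at -3515 to -3116 bp in 0, 8 and 10. Peaks covered 3.94±2.92% of the locus in HSC and 12.2±9.39% in BMDM (difference -26.4 in percentile, adjusted P=0.0136, and 0.0229 without those libraries, exact permutation). H3K4me3 over the locus was lower in HSC too, at 16.0±5.93 (peak in 5 of 12) against 30.1±18.2 (peak in 11 of 11; difference -13.7, exact permutation P=0.00161, adjusted P=0.0239). It was -8.87 (adjusted P=0.0353, exact permutation) without control unstimulated BMDM 1, and the call was lost without control HSC 2, 5 or 6 (adjusted P=0.0528, 0.0523 and 0.0527).

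Over the HSC preparations, between 4 and 7 of the 8 members had an H3K27ac promoter peak (median 6), and between 1 and 6 an H3K4me3 peak (median 4). With all start sites, the measure used for the values of this paragraph, the spread of H3K27ac percentiles over the 12 libraries had an SD of 4.01 at Itga2b. That is smaller than at all but 13.1% of 16636 genes. The best Itga2b peak then lay over the gene start in 3 of 12 libraries, so this is not the spread at its own start. The SD was 5.30 at Gp9 and 5.75 at Pf4, near the median of 6.39 over genes, and 8.79 at Vwf. At Treml1 and Gp1bb it was 11.1 and 11.2, with 93.1% and 93.7% of genes below them, and their peak was missing in 4 of 12 libraries each. For H3K4me3 the SD ran from 7.51 at Vwf to 12.7 at Gp1bb among the members with a peak in at least 2 HSC libraries, and its median over genes was 11.6. Diabetic HSC 5 was the highest H3K27ac library of its group for 4 members, and control HSC 6 and diabetic HSC 2 the lowest for 4. For H3K4me3, control HSC 1 was the lowest of its group for 4 members, and control HSC 2 the highest for 4. The high values of control HSC 2 came in part from ties, since a gene with no peak takes a higher percentile in a shorter list.

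**Figure D4:**
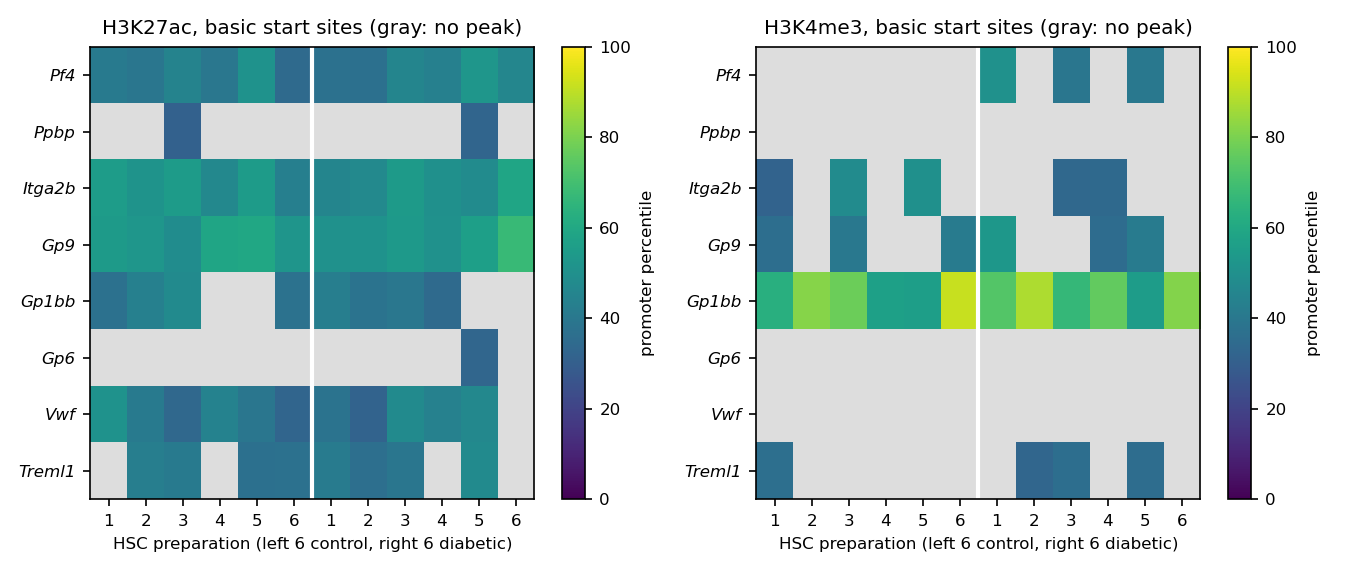
Percentile of each member (rows, basic start sites) in each HSC library (columns, 6 control then 6 diabetic) for both marks; color gives the percentile and gray marks a promoter without a peak. Itga2b, Gp9 and Pf4 have an H3K27ac peak in 12 of 12 libraries, and Gp1bb and Treml1 in 8 of 12.

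Other genes of the lineage were read from lists of platelet and megakaryocyte genes. Of 20 platelet receptor and adhesion genes, H3K27ac was higher in HSC at 7 and lower at 3 (median difference 4.81). Gp1ba, the von Willebrand factor-binding chain of the receptor that holds Gp9 and Gp1bb, was higher by 19.1 (37.5±6.56 against 18.2±5.82, adjusted P=0.000388, exact permutation). Cd9, a tetraspanin gene, and Mpig6b, an inhibitory receptor gene, were at -13.2 and -11.0, both called. Of 16 tested granule and secretory genes, 4 were higher and 4 lower (median 3.04), with Angpt1 at 28.5, Rab27b, a granule-release GTPase gene, at 25.3, Pdgfa at -28.4 and Thbs1 at -14.1. Of 20 signaling and cytoskeleton genes, 3 were higher and 6 lower (median -1.73). Among them, Pdlim1 stood at 75.6±5.14 in HSC and 33.7±10.7 in BMDM (difference 42.2, adjusted P=7.92e-05, exact permutation) and Prkcq at a difference of 19.1, whereas Plcg2 was at -18.0 and Tpm4 at -15.6.

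Of 23 transcription factor genes of the lineage, 7 were higher in HSC for H3K27ac and 4 lower (median 0.283). Gata1, which encodes the factor that drives megakaryocyte and erythroid genes, stood at 44.8±7.72 in HSC and 17.7±4.59 in BMDM (difference 27.03, adjusted P=7.92e-05, exact permutation), and Gfi1b at a difference of 18.5. Runx1 and Mef2c were at -13.6 and -9.41, both called. For H3K4me3, 0 of 16 receptor genes were called in either direction (median -3.87), and 0 higher and 4 lower of 16 granule genes (median -4.19), among them Clu at -27.4 and F5 at -14.4. One signaling gene, Pdlim1, was higher (21.5) and 2 were lower, Plek (-19.3) and Ptgs1 (-17.7). Of the factor genes, Nfib was higher (26.7), and Lyl1 (-19.7) and Fli1 (-12.7) lower. Over all genes, 15.9% were called higher and 15.1% lower for H3K27ac, and 7.03% and 8.13% for H3K4me3.

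Markers of other cells were read in the same comparison. Of 13 tested erythroid genes, 11 were higher in HSC for H3K27ac and 0 lower (median 22.97), although Ter119, an erythroid antigen, was among the depletion antibodies. The list's median percentile ran from 44.2 to 65.8 over HSC libraries and from 17.3 to 39.2 over unstimulated BMDM. Car1, a carbonic anhydrase gene, had a promoter peak in no library. Of 15 stem and progenitor genes, 10 were higher and 1 lower (median 10.0), and of 14 macrophage genes, 0 were higher and 9 lower (median -19.0). Angpt1 is on both the stem and progenitor list and the granule list, so the lists are not separate. C1qa, a complement gene of macrophages, had a peak in 0 of 12 HSC and 10 of 11 unstimulated BMDM libraries. Of 14 endothelial genes, which share Vwf with the lineage, 2 were higher and 1 lower, and the list's median ran from 21.6 to 43.0 in HSC and from 20.1 to 42.5 in BMDM. Called higher were 3 of 5 mast cell and basophil genes, 2 of 10 neutrophil genes, 2 of 9 B cell genes and 3 of 10 T cell genes, with 0 lower. Beside the 15.9% of all genes called higher, the neutrophil and B cell counts lay near the background. For H3K4me3, 4 of 11 erythroid genes were higher and 4 of 13 macrophage genes lower. The part of these cells in the members' differences was not tested.

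Across the 35 H3K27ac libraries, the genes whose percentile followed each member most closely were named, as a description of libraries that share depth and cell type. Gp9 was followed by Gm8947 (Pearson r=0.767) and by Gfi1b (0.752), Gp1bb by Fstl4 (0.759) and Sh3rf3 (0.721), and Itga2b by Lamtor5 (0.653) and Fbxl18 (0.594), all with all start sites. Pf4 was followed by Icam1 (0.781) and Col11a2 (0.766), Vwf by Dok1 and Loxl3 (both 0.688, from the same peaks), and Treml1 by Ctf1 (0.561) and Abca8b (0.532). Ppbp, with a peak in 7 of 35 libraries, and Gp6, with a peak in 3, had too few to rank.

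Stimulation of BMDM was compared next, and 0 members were called for either mark. For H3K27ac, the exact permutation called 0.0116% of 17202 genes higher and 0.0233% lower with LPS+IFN-γ, with 2492 genes at an unadjusted P under 0.05, and differences of the members ran from -12.1 to 1.59. The lowest was Ppbp, with a peak in 5 of 11 unstimulated and 0 of 12 stimulated libraries (-12.1, exact permutation P=0.00501, adjusted P=0.162). Without the 3 libraries against their label, 257 of 17137 genes were called higher and 389 lower, the members tested ran from -14.1 to 4.09, and 0 were called, with Ppbp at -14.1 (adjusted P=0.0832, exact permutation). Those libraries had been picked by their ranks over stimulation-dependent promoters, so the larger counts without them partly follow from that choice. For H3K4me3, 0% of 17765 genes were called and 952 had an unadjusted P under 0.05, with members between -2.92 and 10.1.

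Diabetes was compared with control within each cell type, and 0 members were called. In HSC, H3K27ac differences of the 7 members tested ran from -1.29 to 4.87 (smallest P=0.279, exact permutation), with 0% of 16636 genes called and 575 at an unadjusted P under 0.05. At the basic start of Itga2b, control HSC stood at 51.1±5.09 and diabetic HSC at 50.7±5.01. For H3K4me3 in HSC, the 6 members tested ran from -4.88 to 13.3, with 0% of 16707 genes called and 806 at an unadjusted P under 0.05. The highest was Pf4, with a peak in 0 of 6 control and 3 of 6 diabetic libraries (exact permutation P=0.0584).

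In BMDM, diabetic minus control H3K27ac differences ran from -11.5 to 6.66 in unstimulated cells and from -11.6 to 3.38 in stimulated cells, and H3K4me3 differences from -12.4 to 8.18 and from -7.32 to 13.1. For each of these 4 comparisons the exact permutation called 0% of genes, with 708, 594, 767 and 889 of 16801, 16690, 17278 and 17388 genes at an unadjusted P under 0.05. The difference of the HSC against BMDM contrast between diabetic and control mice was tested as an interaction, again with 0% of genes called for either mark (593 and 821 genes at an unadjusted P under 0.05), and also with 0% without the libraries against their label. The members' interaction ran from -7.94 to 12.3 for H3K27ac and from -7.39 to 20.0 for H3K4me3, where Pf4 (20.0, exact permutation P=0.0401) and Treml1 (19.0, exact permutation P=0.0159) had the smallest values, both with an adjusted P of 0.999. Within a cell type, 6 libraries against 6 or 5 allow 924 or 462 arrangements and a smallest P of 0.002165, so no gene on its own could pass an adjustment over this many genes.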

How the data were processed

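ChIP-seq of H3K27ac and H3K4me3 used 50-base single reads. The submitters' processing notes name Trim Galore 0.3.3, cutadapt 1.8, Bowtie2 2.2.6, Picard 2.18.14 and 2.19.2, bedtools 2.19.1 and MACS2 2.2.7.1, with builds GRCm38 and mm10. The authors called peaks per library against input. In each deposited list, a ratio gives the fold enrichment at a summit, and the authors' −log10 p and −log10 q rate it. The lowest deposited −log10 q was 1.30104, so lists stop near a q of 0.05. Read depth is not given by the lists, and the number of peaks stands in for it.

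Summits of 1 interval were joined (9511856 summits to 7828714 peaks), and windows were taken from GENCODE M21 (93513 start sites, 21 chromosomes; 0 peaks lay past a chromosome end). Each gene's best −log10 p was converted to a midrank percentile. Genes with a peak in at least 2 of the compared libraries were tested by exact permutation (426888 arrangements within disease groups for HSC against unstimulated BMDM) with Benjamini-Hochberg adjustment, in Python 3.11.15 with numpy 2.4.6 and numba 0.67.0. The test was checked on simulated data. Groups came from the labels. The labels do not say that libraries came from separate animals, so P values measure the spread between libraries, which may be technical.

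The members and gene lists were chosen with earlier results of these data known. Named are the 8 members, up to 2 called genes of largest difference per direction, mark and lineage list, the 2 genes most correlated with each member having an H3K27ac peak in at least 10 of 35 libraries (starting over 100 kb away or on another chromosome), and libraries highest or lowest for at least 4 members. Car1 and C1qa were named after their values were seen. Some results that the rule would name are not reported here. The 36 inputs were not used. Alternatives tried were a 500 bp window, 2 kb flanks, basic start sites, a −log10 q minimum of 5, the top 10000 peaks, fold ranking, summits, other treatment of genes without a peak, each library left out, each disease group alone, no libraries against their label and a replicate block. The covered share of the locus, and basic starts or covered share with libraries left out, were added after seeing the data.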

Additional observations from a re-analysis of the deposited data

Results flagged for a closer look

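Within groups of 6 or 5 libraries, 15 of 81 promoter percentiles checked had 1 library far from the others, by the gap to its nearest neighbor over the group's range. Chance gives about 1 in 20 only for values without ties that are normally spread. Libraries without a peak share the lowest rank here, so the count cannot show an excess over chance. In several of the 15 the library was the only one of its group with a peak. This held for Ppbp H3K27ac in control HSC 3 (29.8), Ppbp H3K4me3 in control unstimulated BMDM 1 (33.1), diabetic unstimulated BMDM 1 (30.3) and diabetic LPS+IFN-γ BMDM 2 (26.3), and Gp1bb H3K27ac in control unstimulated BMDM 6 (30.4). It also held for Gp6 H3K27ac in control unstimulated BMDM 5 (45.4) and control LPS+IFN-γ BMDM 1 (36.9), and for Treml1 H3K4me3 in control HSC 1 (35.2) and diabetic unstimulated BMDM 4 (30.7).

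In other groups the library lacked the peak that the rest had: Gp9 H3K27ac in diabetic LPS+IFN-γ BMDM 4 (19.0, nearest 38.9) and Vwf H3K4me3 in control HSC 2 (19.6, nearest 35.2). In the remaining ones every library had a peak. Itga2b H3K27ac was at 45.1 in control HSC 4 (nearest 54.1), Gp9 H3K27ac at 66.8 in diabetic HSC 6 (nearest 55.7), Gp1bb H3K4me3 at 71.2 in control LPS+IFN-γ BMDM 6 (nearest 47.8) and Vwf H3K4me3 at 76.8 in control LPS+IFN-γ BMDM 3 (nearest 44.9). Diabetic HSC 6 had the shortest H3K27ac list among HSC (51162 peaks).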

How the results depend on the processing

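Percentiles rest on peaks above a threshold, so weak marks and missing marks cannot be told apart, and list length sets where genes without a peak fall. With 1 disease group the smallest P is 0.002165. Of 402 alternatives for counts of called members, 380 kept the count within 1.5 times. They include the disease, interaction and stimulation comparisons, where the count stayed at 0 whichever library was left out. In the disease comparisons within a cell type no gene on its own could pass, so the share kept says little about counts above 0. Of 827 alternatives for single members, 756 kept direction and call, 32 lost the call, 3 gained it and 36 turned direction.

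H3K27ac promoters, 2 members called: 1 with the top 10000 peaks, 0 with fold ranking, 1 with summits, 0 in control and 1 in diabetic mice alone, 2 to 3 with 1 library left out. H3K4me3 promoters, 3 called: 1 with fold ranking, 1 with basic start sites, 0 in either disease group alone, 3 to 3 with 1 library left out. H3K27ac loci, 3 called: 5 by covered share, 0 in either disease group alone, 3 to 4 with 1 library left out. H3K4me3 loci, 1 called (Treml1): 0 with a −log10 q of at least 5, with the top 10000 peaks, with fold ranking, with a replicate block or in either disease group alone, 3 by covered share, and 0 to 1 with 1 library left out (0 without control HSC 2, 5 or 6). The cause was not tested.

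Counts over all genes moved by more than 1.5 times as well (higher and lower in HSC). H3K27ac promoters, 2780 and 2638: 707 and 910 in control mice, 1047 and 1178 in diabetic mice, 1725 lower with the top 10000 peaks. H3K27ac loci, 3128 and 3266: 786 and 1053 in control mice, 1125 and 1433 in diabetic mice, 1989 higher with fold ranking, 2061 lower with the top 10000 peaks. H3K4me3 promoters, 1239 and 1433: 0 in either disease group, 371 and 528 with fold ranking, 819 and 682 with the top 10000 peaks, 460 and 601 with a replicate block, 764 and 879 without control unstimulated BMDM 5 and 6. H3K4me3 loci, 1387 and 1210: 0 in either disease group, 336 and 321 with fold ranking, 846 and 675 with the top 10000 peaks, 419 and 414 with a replicate block, 824 and 782 without those libraries, 3898 and 2791 by covered share, 924 higher without diabetic unstimulated BMDM 1. With stimulation, H3K27ac promoters gave 2 higher and 4 lower, 257 and 389 without the libraries against their label, and 0 to 84 and 0 to 145 with 1 library left out. The libraries against their label had been picked by the stimulation response of diabetic BMDM, so that rise is not independent of the choice.

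Directions turned for H3K27ac at Itga2b (6.94 with the top 10000 peaks, 0.0559 with fold ranking, 26.6 with basic start sites, -1.74 to 0.398 with 1 library left out, above 0 without control HSC 4, 0.0531, or diabetic unstimulated BMDM 4, 0.398), Vwf (0.779 with fold ranking, 6.89 with basic start sites) and Treml1 (4.25 with a −log10 q of at least 5). Gp6 H3K27ac was at 1.69 without control unstimulated BMDM 5 and at 1.61 without the libraries against their label, where too few peaks were left for a test. For H3K4me3 they turned at Pf4 (6.06 in diabetic mice), Ppbp (-0.298 with fold ranking, -0.0166 with summits, -5.79 with genes lacking a peak at 0, -0.805 without control unstimulated BMDM 5 and 6, -0.927 to 0.747 with 1 library left out where a test remained, and 1.98 and 1.81 without unstimulated BMDM 1 of control and of diabetic mice, again with no test), Itga2b (6.94 with basic start sites), Gp9 (1.08 with summits, 4.75 in diabetic mice) and Treml1 (1.53 with a −log10 q of at least 5, 9.27 in diabetic mice, -1.89 to 1.38 with 1 library left out).

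Replicate numbers did not pair the libraries throughout: 23 of 78 same-number correlations were over 0.1, and 18 were the best for their library. Between stimulated and unstimulated diabetic BMDM, 4 of 5 were over 0.1 for H3K27ac and 3 of 5 for H3K4me3, and in control BMDM 2 of 6 for each mark. Between HSC and unstimulated BMDM, 0 of 5 diabetic and 1 of 6 control pairs were over 0.1 for each mark. The main test of stimulation was not paired. With a replicate block, H3K4me3 at Vwf gave -13.2 (adjusted P=0.0806, exact permutation), Itga2b H3K27ac at the basic start 26.2 (adjusted P=0.011) and Gp9 H3K27ac 14.1 (adjusted P=0.0408), both with basic start sites.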
